A study of Mus musculus with 6 samples.

Results

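The p53 pathway and the cyclin-dependent kinase (CDK) inhibitors it works with were examined in RNA-seq counts of the mouse maxillary process, the paired facial swelling that forms the upper jaw and most of the palate. The genes were the p53 gene Trp53, the CDK inhibitors Cdkn1a, Cdkn1b and Cdkn1c, and the p53 targets Mdm2, Ccng1, Bax, Bbc3 and Trp53inp1, chosen by symbol. Of 10 names given, 9 matched a gene, and the name Eda2r-none matched none. All 9 genes passed the filter on low counts, out of 53801 genes in the files and 17514 tested. The question put to them was whether extra Dlx2 came with a growth arrest or cell death response in the RNA.

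The samples were taken on embryonic day 12.5 (E12.5) from embryos labelled C57BL/6 (C57BL/6J in the methods), with 3 wild-type (WT) libraries and 3 of the genotype Wnt1cre; Rosa26Dlx2/-, called Dlx2OE. Dlx2OE embryos carried 1 copy of a Dlx2-3xFlag cassette with a CAG promoter at the Rosa26 locus, kept silent by a stop cassette until Cre removed it. Wnt1-Cre acts in the neural crest lineage, from which the facial mesenchyme comes, so in the epithelium, endothelium, muscle and blood of the same dissected piece, which carry the cassette too, the stop is not known to be removed. Expression by cell type was not measured in these bulk samples. Whether WT embryos carried Cre or the silent cassette was not given in the sources used here. The labels state 7 littermates as the source of RNA and the methods 6, with 3 independent RNA samples per genotype, so p-values measure the spread between these samples.

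p53 is a transcription factor that cells make all the time and destroy all the time, and Mdm2 is the ubiquitin ligase that marks it for destruction. DNA damage or ribosome stress lets p53 protein build up without any need for more Trp53 mRNA, so its activity is read from the mRNA of its targets. Some targets stop the cell cycle, above all Cdkn1a, which encodes p21. Others, such as Bax and Bbc3, open the mitochondrial route to apoptosis. p21, p27 (from Cdkn1b) and p57 (from Cdkn1c) form the Cip/Kip family, which binds and blocks cyclin-CDK complexes. p57 is best known as an imprinted gene, expressed from the maternal copy, that is high in embryonic mesenchyme and in cells leaving the cycle. Neural crest is known to be sensitive to p53 activity, and loss of crest cells through p53 underlies several facial malformations.

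Sequence in front of Cdkn1a is shown because Cdkn1a is the best-known p53 target and 1 of its 2 promoter windows holds a p53-type element. p53 binds DNA as a tetramer at a pair of short elements, in which CATG is a common core. RefSeq promoter windows (GRCm38.p6), each running from 250 bases before to 50 bases after a transcription start, existed for 7 of the 9 members, as 10 windows. The search looked for CATG followed by 6 bases of any kind and CATG again, a pattern that is its own reverse complement and so covers both strands. It occurred in 234 of 32851 windows, or 0.712%, and among the 7 members with a window it was found in that of Cdkn1a alone, at chr17:29090729-29091028 on the plus strand. The other Cdkn1a window, at chr17:29093519-29093818, held no match. The element lay from 51 to 32 bases before the start, at chr17:29090928-29090947, and is printed in capitals, 5′ to 3′:
Cdkn1a promoter: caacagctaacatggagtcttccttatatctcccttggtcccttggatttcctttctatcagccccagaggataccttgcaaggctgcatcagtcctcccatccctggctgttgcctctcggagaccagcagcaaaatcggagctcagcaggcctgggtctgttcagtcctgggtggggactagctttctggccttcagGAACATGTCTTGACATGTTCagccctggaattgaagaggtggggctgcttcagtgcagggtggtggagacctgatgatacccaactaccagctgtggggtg
The match is a description of the letters and no test of binding. The pattern was found in 0 of the 35 windows of 28 further p53 targets, which says only that these letters are not in those windows.

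Libraries held 26155500 to 31308813 counts in genes, so that 3 counts, taken as the floor, were worth 0.0955 to 0.111 CPM (counts scaled to a common library size with edgeR's TMM factors). Dlx2 itself averaged 41.0 CPM in the WT libraries against 124 CPM with the transgene, a log2 fold change of 1.60 (SE 0.118, edgeR adjusted p = 0.00241), as the labels say. Markers of 9 cell classes were summed per library. The mesenchymal sum was higher in every Dlx2OE library (1950 to 2390 CPM against 1430 to 1730), but its 9 genes did not move together. Prrx1 went from a mean of 555 CPM to 818 CPM (log2 fold change 0.56, edgeR adjusted p = 0.0943) and Twist1 and Alx4 rose, while Pax9 fell (-1.10, adjusted p = 0.0141) and Prrx2, Osr2 and Pdgfra had 0.04, -0.07 and 0.05. The erythroid sum (1840 to 2420 against 3180 to 4130) and the macrophage sum (36.5 to 47.6 against 59.7 to 68.7) were lower in every Dlx2OE library. The sums overlapped between genotypes for epithelium (799 to 1400 CPM in WT and 591 to 1830 in Dlx2OE), neurons (82.9 to 361 and 202 to 1640), glia (141 to 148 and 93.2 to 316), muscle (185 to 369 and 80.9 to 244), endothelium (276 to 418 and 195 to 309) and cartilage (511 to 775 and 256 to 625), and Foxd3 was the marker at 0. The epithelial genes did not move together either. Krt8 (log2 fold change -2.11, edgeR adjusted p = 0.00939) and Krt18 (-1.85, 0.0233) fell, while Krt5 (1.91, 0.0792) was higher in every Dlx2OE library. Of the 10 epithelial markers, 7 were lower and 3 higher. Fewer cells of a type and less RNA per cell cannot be told apart in bulk samples.

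The p53 gene and its classical targets did not pass the test, and among the 9 members the change that did was a fall of Cdkn1c. By edgeR's quasi-likelihood test 1 of 9 members had an adjusted p under 0.05, 0 of them higher and 1 lower in Dlx2OE. Over all genes tested the share past that threshold was 6.45%, with 2.99% higher and 3.46% lower. At the stricter rule of a log2 fold change beyond 1 as well, 0 members were called, against 3.12% of all genes. An unadjusted p under 0.05 was reached by 2 of 9, Cdkn1c and Bax, against 29.5% of all genes. The groups did not overlap for 5 of 9 members, higher in Dlx2OE for Mdm2 and lower for Cdkn1b, Cdkn1c, Bax and Trp53inp1, where 34.1% of all genes had groups that did not overlap. The median log2 fold change of the members was -0.193 and that of all genes 0.003, with 7 of 9 members lower.

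**Figure D1:**
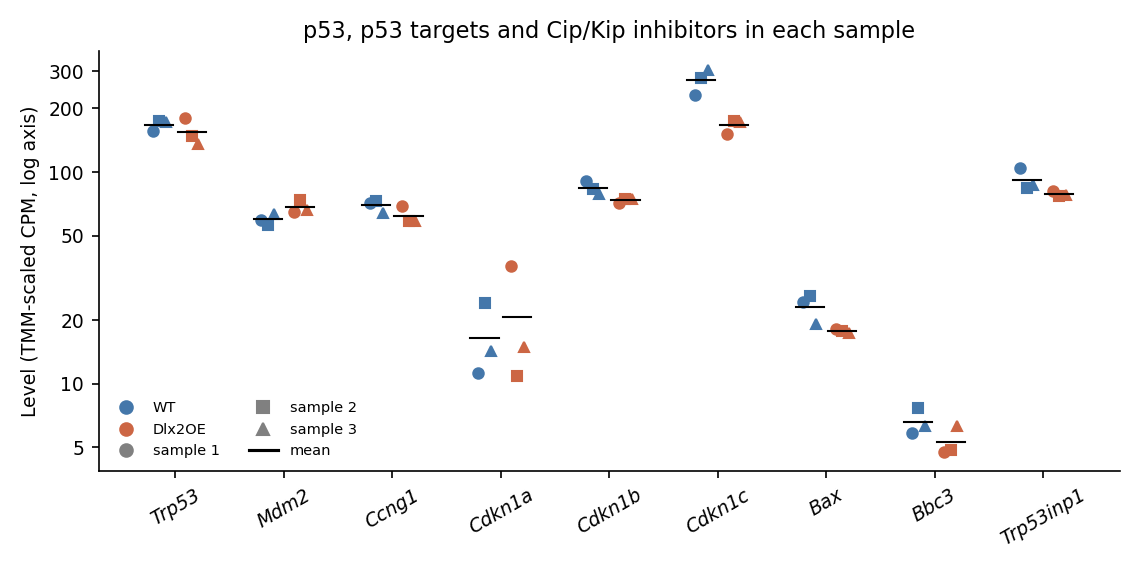
Level of each member in each of the 6 libraries (CPM, log axis), WT and Dlx2OE side by side, with the group mean as a bar. Cdkn1c is the highest member by mean CPM in each genotype, and its 3 Dlx2OE points (152 to 175 CPM) lie below its 3 WT points (232 to 304 CPM), while the Cdkn1a points are the most spread.

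Trp53 (chr11:69580359-69591873, plus strand, GRCm38) was 156, 175 and 172 CPM in WT and 181, 148 and 135 CPM in Dlx2OE. The highest and the lowest of the 6 values were both Dlx2OE, so the groups overlapped. This amounted to a log2 fold change of -0.12 (SE 0.127, 95% interval -0.41 to 0.18, edgeR adjusted p = 0.564). The processed pseudogene Trp53-ps on chromosome 17 had 0 counts in every library.

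Mdm2 (chr10:117688875-117710758, minus strand), which is both a target of p53 and its main brake, was 59.6, 56.1 and 63.6 CPM in WT and 64.9, 73.6 and 66.4 CPM in Dlx2OE. Every Dlx2OE value lay above every WT value, although the nearest of them were little apart. The log2 fold change of 0.19 (SE 0.0964, edgeR adjusted p = 0.223) did not pass the test, and its 95% interval, from 0.979- to 1.33-fold, bounds how large a rise these data allow.

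Ccng1 (chr11:40748552-40755311, minus strand), which encodes cyclin G1, one of the most p53-responsive mRNAs in mouse tissue, was 71.8, 73.3 and 64.0 CPM in WT. In Dlx2OE it was 68.8, 58.7 and 58.7 CPM, with 1 library inside the WT range and 2 below it. On the log2 scale the fold change was -0.17 (SE 0.106, edgeR adjusted p = 0.320), with a 95% interval from 0.752- to 1.05-fold. Trp53inp1 (chr4:11156431-11174379, plus strand), a nuclear protein that p53 induces and that takes part in autophagy and death, was 104, 83.7 and 86.7 CPM in WT and 81.6, 77.2 and 77.7 CPM in Dlx2OE. All 3 Dlx2OE values were below WT, by a log2 fold change of -0.22 (SE 0.108, edgeR adjusted p = 0.222).

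**Figure D2:**
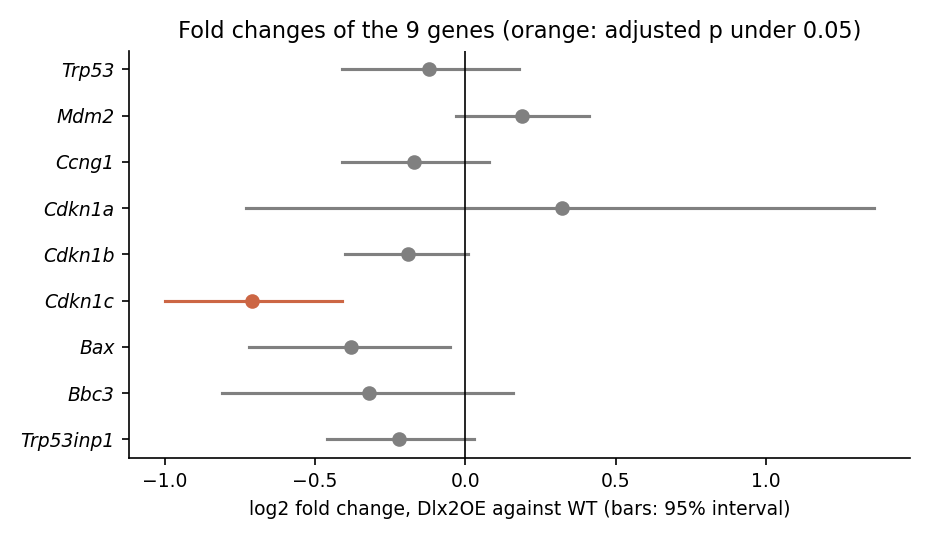
Log2 fold change of each member, Dlx2OE against WT (points), with its 95% interval (lines). The line of Bax also stays below 0, from -0.72 to -0.05, but its adjusted p was 0.129, and the line of Cdkn1c runs from -1.0 to -0.41.

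Cdkn1a (chr17:29090976-29100727, plus strand), the CDK inhibitor that p53 induces and whose upstream element is printed above, was 11.3, 24.0 and 14.3 CPM in WT. In Dlx2OE it was 36.0, 10.9 and 14.9 CPM. Dlx2OE 1 was the highest of all 6 libraries and Dlx2OE 2 the lowest, a spread of 3.3-fold inside a genotype. The coefficient of variation was 39.9% in WT and 65.5% in Dlx2OE, the largest among the members in each group. Its log2 fold change was 0.32 (SE 0.453, edgeR adjusted p = 0.665), and the 95% interval, from 0.604- to 2.57-fold, allows a fall as well as a rise, so a change of Cdkn1a was not detectable at this spread. Without Dlx2OE 1 the log2 fold change was -0.37 (edgeR adjusted p = 0.440).

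The 2 libraries with the most Cdkn1a, Dlx2OE 1 and WT 2, were also those with the highest epithelial marker sum, 1830 and 1400 CPM. The other 4 libraries had epithelial sums of 591 to 1060 CPM and Cdkn1a levels of 10.9 to 14.9 CPM. None of the 10 epithelial markers was at 0, but they did not move together. In Dlx2OE 1, Krt5 (538 CPM) and Krt14 (490 CPM) made up most of the sum. Krt8 (26.3 CPM) and Krt18 (27.4 CPM) were lower in that library than in every WT library. Epcam was 118 CPM in Dlx2OE 1 and 205 CPM in WT 2. The part of epithelium in the Cdkn1a level was not tested. Cdkn1a exons share 7.68% of their length with AC167363.2, a gene not counted in these files.

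**Figure D3:**
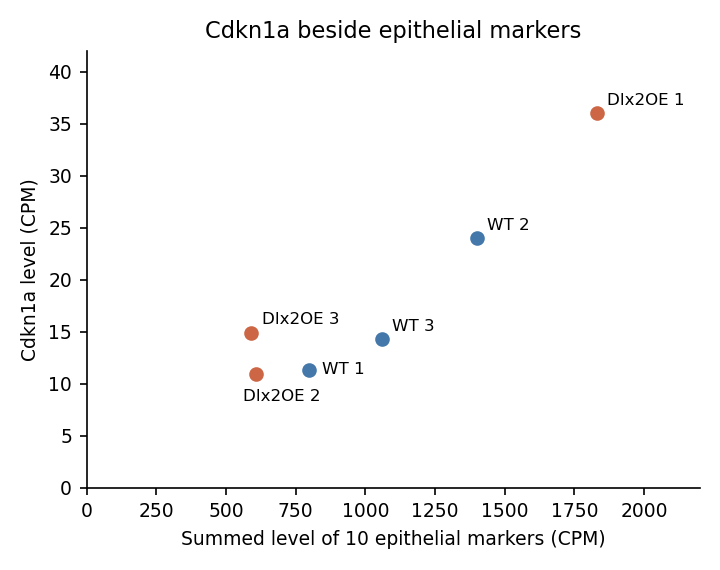
Cdkn1a level (CPM) against the summed level of 10 epithelial markers (CPM), 1 point per library, as a description of 6 libraries that share a dissection. Dlx2OE 1 (36.0 CPM) and WT 2 (24.0 CPM) stand to the upper right of the other 4 libraries. Most of the sum in Dlx2OE 1 came from Krt5 and Krt14.

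Cdkn1c (ENSMUSG00000037664, chr7:143458339-143461050, minus strand), the imprinted inhibitor p57, fell. It was 232, 277 and 304 CPM in WT, from 6798, 8354 and 9491 counts. In Dlx2OE it was 152, 175 and 172 CPM, from 4490, 5485 and 4669 counts. The highest Dlx2OE library stood clear below the lowest WT library. Its mean was 271 ± 36.4 CPM without the transgene, against 166 ± 12.7 CPM with it (SD, n = 3 libraries per genotype). The level fell by 38.7% (0.613-fold, 95% interval 0.499 to 0.752), a log2 fold change of -0.71 (SE 0.128, edgeR adjusted p = 0.0253). DESeq2 gave an adjusted p of 4.79e-05. By p-value Cdkn1c ranked 392 among the genes tested.

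The call of Cdkn1c is close to the threshold: with 1 library left out the log2 fold change stayed between -0.814 and -0.626, but edgeR's adjusted p rose to 0.101 without WT 2, 0.0772 without Dlx2OE 2 and 0.0678 without Dlx2OE 3. Cdkn1c shares 30.7% of its exon length with Gm44732, which lies on the opposite strand, and reads in such an overlap go to neither gene if union counting ignored strand, a setting not given in the sources used here. Gm44732 itself held 0.109 CPM in WT and 0.0584 CPM in Dlx2OE. Beside this fall, the mesenchymal marker sum was higher, though not for each of its genes, and the erythroid and macrophage sums lower in every Dlx2OE library. Log2 fold changes were also below 0 for all tested markers of muscle (10), endothelium (7) and cartilage (4), and above 0 for all 10 of neurons. The part of these marker differences in the fall of Cdkn1c was not tested.

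Cdkn1b (chr6:134920401-134925513, plus strand), which encodes p27, was 90.5, 83.2 and 78.9 CPM in WT and 71.8, 74.8 and 74.3 CPM in Dlx2OE. All 3 Dlx2OE values were below WT, but by little. This gave a log2 fold change of -0.19 (SE 0.0904, 95% interval -0.40 to 0.01, edgeR adjusted p = 0.195).

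Levels of different genes were compared per length, as CPM per kb of exon, with all annotated exons of a gene merged. The order and distances below depend on that choice of length. For Trp53 the merged exons were 4045 bp and the longest coding transcript 1867 bp. These lengths were 1576 and 1100 bp for Bax, and 2039 and 1901 bp for Cdkn1c. By coding transcript, Trp53 would stand nearer to Cdkn1c, and no order on that length is given here. On that scale Cdkn1c was the most abundant member in both genotypes, at 133 ± 17.9 in WT and 81.5 ± 6.25 in Dlx2OE (SD, n = 3). Trp53 followed with 41.4 ± 2.5 and 38.2 ± 5.8, so the distance from Cdkn1c to the next member was 3.21-fold in WT and 2.13-fold in Dlx2OE. The rest of the order in WT was Ccng1 (19.8 CPM per kb), Cdkn1b (18.5), Bax (14.7), Trp53inp1 (14.1), Mdm2 (11.8), Cdkn1a (4.65) and Bbc3 (3.12). In WT the neighbours Ccng1 and Cdkn1b, Bax and Trp53inp1, and Cdkn1a and Bbc3 did not differ beyond their ranges. In Dlx2OE the order was the same down to Cdkn1b (16.2), then Mdm2 (13.4), Trp53inp1 (12.2), Bax (11.2), Cdkn1a (5.79) and Bbc3 (2.50), with no overlap between neighbours.

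The 3 Cip/Kip mRNAs together made up 137, 161 and 171 CPM per kb in WT and 100, 105 and 105 CPM per kb in Dlx2OE. The sum was thus lower in every Dlx2OE library. Of it, Cdkn1c held 83.2%, 84.5% and 87.5% in WT and 74.2%, 81.5% and 80.5% in Dlx2OE. Cdkn1b held 14.5%, 11.4% and 10.2% in WT and 15.7%, 15.6% and 15.5% in Dlx2OE. Cdkn1a held 2.32%, 4.19% and 2.36% in WT, and in Dlx2OE 10.1%, 2.91% and 3.99%. Most Cip/Kip mRNA was therefore Cdkn1c in each library of both genotypes, and the share of Cdkn1a was highest in Dlx2OE 1.

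**Figure D4:**
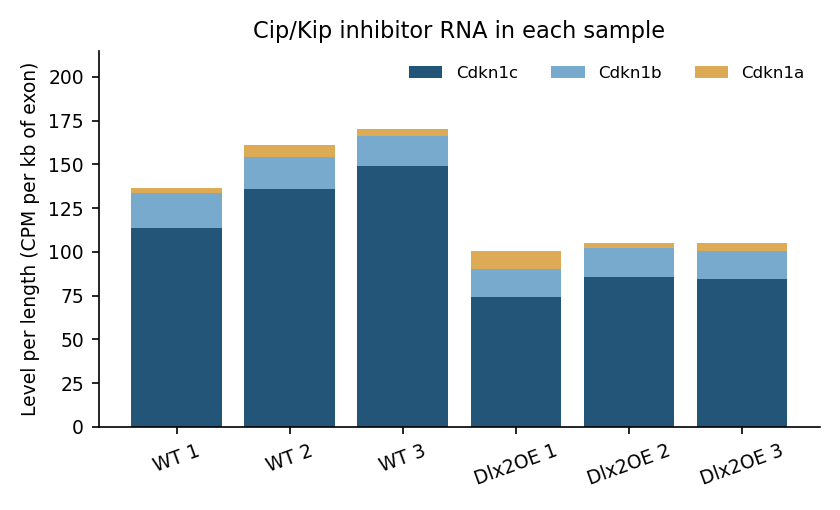
Stacked bars of Cdkn1a, Cdkn1b and Cdkn1c (CPM per kb of exon) in each library, starting at 0. The bars reach 137 to 171 in WT and 100 to 105 in Dlx2OE, and the Cdkn1c segment takes up most of every bar.

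The genes whose pattern over the 6 libraries was most like that of Cdkn1c were Tgfb3 (Pearson r of log2 CPM 0.9941), Tmem56 (0.9918), Idua (0.9912), Rgs5 (0.9877) and Rcsd1 (0.9856). These values describe 6 libraries and were the highest of a search over all genes with a mean log2 CPM of at least 1. Tgfb3 is a growth factor of the palate and Rgs5 a pericyte gene. The search used libraries of both genotypes, so lower values of these genes in Dlx2OE follow from the choice.

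Around Cdkn1c lies an imprinted cluster, of which 7 further genes were tested and 0 passed (edgeR, smallest adjusted p = 0.0632), while 3 had an unadjusted p under 0.05 (29.5% of all genes did) and DESeq2 called 2, Cd81 and Kcnq1ot1, where it called 12.7% of all genes. Kcnq1ot1, the long noncoding RNA of the paternal copy that silences this cluster in cis, was 38.2, 43.5 and 44.6 CPM in WT and 48.6, 69.2 and 92.3 CPM in Dlx2OE. Its values were higher in every Dlx2OE library, with a log2 fold change of 0.73 (SE 0.211, edgeR adjusted p = 0.0730). After the correction for gene length and GC content it was 0.014 (adjusted p = 0.960), where that of Cdkn1c was -0.58. Cd81 had a log2 fold change of -0.35 (edgeR adjusted p = 0.0632) and Slc22a18 of -0.94 (edgeR adjusted p = 0.146). The list's median was -0.209, with 6 of 7 genes lower.

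The second CDK inhibitor family, INK4, blocks the CDKs that work with D-type cyclins. Of 4 genes, 3 were tested and 0 passed by edgeR, against 6.45% of all genes. At an unadjusted p under 0.05 there were 0 (29.5% of all genes), and by DESeq2 0 (12.7%). Cdkn2d had a log2 fold change of -0.22 (edgeR adjusted p = 0.400), Cdkn2b of -0.60 (0.424) and Cdkn2c of -0.05 (0.932). These small values moved with the processing, Cdkn2d to -0.015 with the length and GC correction and Cdkn2b to -0.102 without WT 3. Cdkn2a, the locus of p16 and of the p53-stabilising protein ARF, did not exceed the floor of 3 counts in any library. Its means were 0.0673 CPM in WT and 0.0444 CPM in Dlx2OE, so no change of it was detectable at this depth.

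Among genes of the G1 step of the cell cycle, 1 of 17 passed (5.88%), higher in Dlx2OE. Over all genes tested 6.45% passed, 2.99% of them higher and 3.46% lower as shares of all genes, so this count was near the general share. The gene that passed was E2f1, a transcription factor that drives S-phase genes. E2f1 was 30.4, 28.8 and 35.3 CPM in WT and 47.4, 47.0 and 46.7 CPM in Dlx2OE (log2 fold change 0.58, SE 0.107, edgeR adjusted p = 0.0264). E2f1 was not called without WT 1, WT 2, Dlx2OE 2 or Dlx2OE 3. E2f2 had 0.49 (edgeR adjusted p = 0.0642) and Cks1b -0.54 (edgeR adjusted p = 0.107). The list was split, with 9 genes higher and 8 lower and a median log2 fold change of 0.083.

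On the death side, the pore-forming protein gene Bax (chr7:45461697-45466898, minus strand) was 24.3, 26 and 19.1 CPM in WT and 18.1, 17.7 and 17.4 CPM in Dlx2OE. Each Dlx2OE value lay below WT. The log2 fold change was -0.38 (SE 0.144, unadjusted p = 0.0287, edgeR adjusted p = 0.129), and without WT 3, the lowest WT library, it was -0.515 (edgeR adjusted p = 0.0424). Bax shares 12.2% of its exon length with Gm45808, which lies entirely within exons of other genes, so its 0 counts say nothing of its expression or of reads lost from Bax.

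Bbc3 (chr7:16308393-16318205, plus strand), which encodes the BH3-only killer PUMA, was the lowest member at 5.88, 7.70 and 6.32 CPM in WT and 4.76, 4.84 and 6.31 CPM in Dlx2OE. The groups overlapped by 1 library. Its log2 fold change was -0.32 (SE 0.210, edgeR adjusted p = 0.333), and its 95% interval ended at 1.12-fold.

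The balance of Bax against the survival gene Bcl2, as log2 CPM of Bax minus that of Bcl2, was -0.49, -0.39 and -1.13 in WT and -1.33, -1.0 and -1.24 in Dlx2OE. The groups overlapped through WT 3. CPM is not scaled for gene length, so the sign of this difference does not order the 2 genes. Per kb of exon, Bax had 14.7 CPM and Bcl2 4 CPM in WT, and 11.2 and 4.43 CPM in Dlx2OE. Bcl2 alone had a log2 fold change of 0.15 (edgeR adjusted p = 0.481).

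Of 11 further Bcl2-family genes 0 passed by edgeR, although 5 had an unadjusted p under 0.05, 0 of them higher, and DESeq2 called 3. Over all genes 29.5% had such a p, and DESeq2 called 12.7%. These 3 were Bad, Bmf and Bik, all BH3-only genes that promote death. The 5 also held the survival gene Bcl2l1 (-0.27, unadjusted p = 0.0239, edgeR adjusted p = 0.118), lower in every Dlx2OE library. The BH3-only gene Bcl2l11 was among them too (-0.30, unadjusted p = 0.0343, edgeR adjusted p = 0.140). Bad had a log2 fold change of -0.58 (edgeR adjusted p = 0.0537, DESeq2 0.0111) and Bmf of -0.48 (edgeR 0.0570, DESeq2 0.0119). Bik was 2.32, 1.66 and 0.994 CPM in WT and 0.675, 0.637 and 0.406 CPM in Dlx2OE, with no overlap (log2 fold change -1.52, edgeR adjusted p = 0.0581, DESeq2 0.0317). Hrk, a BH3-only gene known from neurons, had the largest positive value of the list, 2.17 (edgeR adjusted p = 0.206). Its levels were 0.103, 1.69 and 0.641 CPM in WT and 0.473, 2.64 and 7.90 CPM in Dlx2OE, and the highest was in Dlx2OE 3, the library with the highest neuronal marker sum (1640 CPM), whose part in it was not tested. Hrk was named after its values were seen.

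Of 13 caspases and caspase regulators 0 passed by edgeR or by DESeq2, and 3 had an unadjusted p under 0.05. Over all genes edgeR called 6.45% and DESeq2 12.7%, and 29.5% had such an unadjusted p. Casp8, the initiator caspase below death receptors, had a log2 fold change of -0.35 (edgeR adjusted p = 0.114), Birc3, an inhibitor of apoptosis, of 0.42 (0.122), and Casp6, an executioner, of -0.33 (0.166).

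A wider list of 38 p53 targets gave 37 genes that were tested, of which 4 passed by edgeR (10.8%), 0 higher and 4 lower. Of all genes tested 6.45% passed, with 2.99% higher and 3.46% lower. Fas, the death receptor, was 6.83, 5.48 and 6.06 CPM in WT and 2.57, 3.47 and 2.92 CPM in Dlx2OE (log2 fold change -1.04, SE 0.216, adjusted p = 0.0356), the only one of the list past 1 in size. Siva1, a proapoptotic gene, was 147, 146 and 90.3 CPM in WT and 79.3, 62.1 and 55.8 CPM in Dlx2OE (-0.96, SE 0.210, adjusted p = 0.0400). Rps27l, a ribosomal protein gene that p53 induces, was 135, 135 and 82.8 CPM in WT and 75.5, 59.4 and 53.8 CPM in Dlx2OE (-0.90, SE 0.209, adjusted p = 0.0450). For Siva1 and Rps27l the WT 3 library stood much nearer to Dlx2OE than WT 1 and WT 2 did. The counts of Rps27l are uncertain where reads are shared with its near-identical relative Rps27. Sesn1, which restrains growth signalling, was 63.4, 59.8 and 51.3 CPM in WT and 43.5, 41.7 and 41.1 CPM in Dlx2OE (-0.47, SE 0.105, adjusted p = 0.0426).

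After the length and GC correction Fas stayed called (-0.951), while Siva1 (-0.813), Rps27l (-0.752) and Sesn1 (-0.435) kept most of their size with adjusted p-values of 0.0539 to 0.0713 (edgeR). With a replicate block it was Siva1 and Rps27l that stayed called and Fas that did not (edgeR adjusted p = 0.0733). Without WT 1, WT 2, Dlx2OE 2 or Dlx2OE 3 none of the 4 was called. Over the whole list 15 genes were higher and 22 lower, with a median log2 fold change of -0.043, near that of all genes. Eda2r, a receptor gene on this list, was 1.95, 2.19 and 1.70 CPM in WT and 1.59, 1.78 and 1.85 CPM in Dlx2OE (-0.16, edgeR adjusted p = 0.674). Sco2 had 0 counts in every library and was not tested, but 91.8% of its exon length overlaps Tymp and Ncaph2, where union counting gives reads to no gene.

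Other well-known targets chosen after their values were seen went both ways without passing edgeR's test. The antiproliferative gene Btg2 had a log2 fold change of -0.72 and was lower in every Dlx2OE library (edgeR adjusted p = 0.0726). DESeq2 called Btg2 (adjusted p = 0.0100), where it called 12.7% of all genes, but none of the others named here. Plk3 had 0.74 (edgeR adjusted p = 0.0728, DESeq2 0.0578). Mdm4, the partner of Mdm2, had 0.39 (edgeR 0.0883, DESeq2 0.0581). Gadd45a, a damage-response gene, had -0.40 (edgeR 0.242, DESeq2 0.323). Pmaip1, which encodes the BH3-only protein NOXA, had -0.63 (edgeR 0.374, DESeq2 0.323).

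Of 16 genes of the p53 family and of p53 control, 2 passed (12.5%, against 6.45% of all genes), both higher (2.99% of all genes). Crebbp, the acetyltransferase that serves p53 among many factors, was 83.2, 85.3 and 106 CPM in WT and 144, 126 and 158 CPM in Dlx2OE (log2 fold change 0.64, SE 0.133, edgeR adjusted p = 0.0348). Twist1, a mesenchymal transcription factor that restrains p53, was 201, 189 and 260 CPM in WT and 347, 361 and 313 CPM in Dlx2OE (0.65, SE 0.143, edgeR adjusted p = 0.0402). Neither was called without WT 1, WT 2, Dlx2OE 2 or Dlx2OE 3, Twist1 was not called without Dlx2OE 1 either, and Crebbp was not called after the length and GC correction. Twist1 is also one of the mesenchymal markers whose sum was higher in Dlx2OE, and the part of that difference in its rise was not tested. Atm, the kinase that activates p53 after DNA breaks, had 0.62 (edgeR adjusted p = 0.0511, DESeq2 0.00731). Of the list, 12 genes were higher and 4 lower, with a median of 0.144. Rpl11, a ribosomal protein that can hold Mdm2 back, had -0.82 (edgeR adjusted p = 0.0639) and was named after its values were seen.

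**Figure D5:**
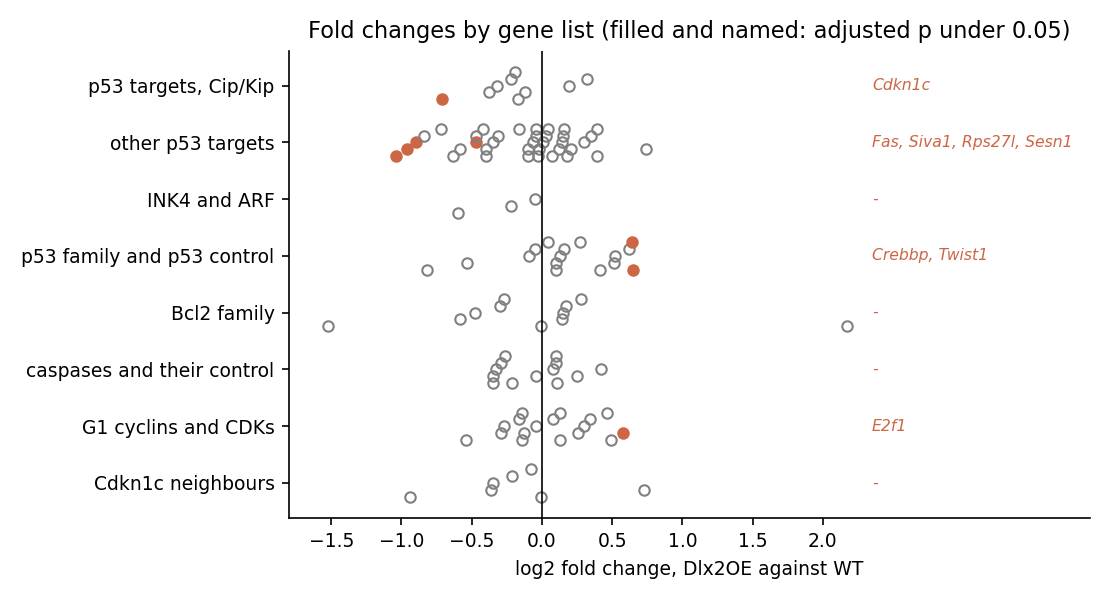
Log2 fold changes of the tested genes in 8 lists, 1 point per gene, filled and named where edgeR's adjusted p was under 0.05. Called genes were lower among the members (Cdkn1c) and the other p53 targets (Fas, Siva1, Rps27l, Sesn1), and higher in p53 control (Crebbp, Twist1) and the G1 list (E2f1).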

How the data were processed

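Maxillary processes of 3 WT and 3 Dlx2OE samples were sequenced as poly(A) libraries (150 bp paired reads). Per the submitters' processing notes the authors used FastQC, STAR 2.7.3a (mm10) and HTSeq 0.12.4 in union mode, and deposited raw read counts per gene. The annotation release and strand setting are not given in the sources used here, so sense and antisense reads of overlapping genes cannot be told apart. Genes were named through GENCODE M21 (GRCm38), which held 53706 of the 53801 identifiers.

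Counts were tested with edgeR 4.0.16 (R 4.3.3): filterByExpr (minimum count 10), TMM scaling, the quasi-likelihood F test, and Benjamini-Hochberg adjustment over 17514 genes. A call is an adjusted p under 0.05. The 5 summary lines of each file, which include reads assigned to no feature, were left out of totals. The alternatives were DESeq2 1.42.0, the tool of the study, other scalings and filters, a replicate block, removal of haemoglobin and mitochondrial genes, a loess length and GC correction, and each sample left out. The floor covers counting error only. The 95% intervals of fold changes come from edgeR's quasi-likelihood test and include the spread between libraries. On simulated counts edgeR recovered 61% of 200 genes changed by a log2 of 1, with 2 false calls among 124, and DESeq2 65.5% with 33 among 164. At a log2 of 2 edgeR recovered 91% with 12 false calls among 194, and DESeq2 88.5% with 27 among 204. The simulation used edgeR's trended dispersion and no outlying library. In the real data calls ran from 79 to 2091 with a sample left out, so these are not the error rates of the 2 tools on these libraries.

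Members and lists were chosen with earlier results of these data known. Named were all members, in other lists the called genes and, where fewer than 3 were called, the 3 with the smallest p, and the 5 nearest in pattern to the member with the smallest p. Genes outside this rule are given as such or only as a count's detail.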

Additional observations from a re-analysis of the deposited data

Results flagged for a closer look

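Reads that HTSeq assigned to no feature, which enter no comparison, made up 5.03% to 5.43% of the lines counted in the 3 WT libraries. By HTSeq's default a feature is an exon, so reads in introns of annotated genes can be among them. Reads within and outside genes cannot be told apart in this share. Reads assigned to no feature were 5.75% in Dlx2OE 1, 7.81% in Dlx2OE 2 and 14.7% in Dlx2OE 3, above the WT range in each. In these 3 libraries Cdkn1c was 152, 175 and 172 CPM, Kcnq1ot1 48.6, 69.2 and 92.3 CPM and Hrk 0.473, 2.64 and 7.90 CPM. Kcnq1ot1 and Hrk thus stood in the order of these shares and Cdkn1c did not, and the part of such reads in any of them was not tested.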

How the results depend on the processing

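Over all results and alternatives, 537 values kept their direction and their side of the threshold (for counts, stayed within 1.5 times), 68 lost a call or fell in count, 46 gained one or rose, and 7 reversed. Cdkn1c stayed negative throughout (-0.814 to -0.626 with a sample left out) and lost its call with the length and GC correction plus replicate block (-0.58, adjusted p = 0.0568), where 0 members were called. With a sample left out 0 to 2 members were called, and Cdkn1a ran from -0.371 to 0.676 and Bax from -0.515 to -0.298. Cdkn2c turned positive with library size alone (0.011) and with the length and GC correction (0.03), and ran from -0.458 to 0.175 with a sample left out.

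Same-numbered samples did not deviate together (r = -0.0718, -0.211 and 0.0731). These values were centred within groups of 3 libraries, so they cannot decide whether the numbers pair the samples. The replicate block called 961 genes in place of 1130, with Cdkn1c at -0.70 (adjusted p = 0.0310).

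The other p53 targets called were 2 with the replicate block, 1 with the length and GC correction, 2 with both, and 0 to 7 with a sample left out. Genes of p53 control were 6 with DESeq2, 4 with no filter, 1 with the length and GC correction, 0 with both, and 0 to 6 with a sample left out. Bcl2-family calls were 3 with DESeq2, 3 with no filter, 2 with at least 10 counts in every sample, 1 with the length and GC correction, and 0 to 2 with a sample left out. G1 genes were 3 with DESeq2, 2 with no filter, 0 with the correction plus block, and 0 to 2 with a sample left out. Neighbours of Cdkn1c were 2 with DESeq2, 1 with no filter, and 0 to 2 with a sample left out, and caspases 0 to 1. Calls over all genes were 2428 with DESeq2, 2044 with no filter, 577 with the correction plus block, and 79 to 2091 with a sample left out (79 without WT 2, 180 without WT 1, 213 without Dlx2OE 2, 315 without Dlx2OE 3, 1944 without Dlx2OE 1, 2091 without WT 3). The cause was not tested.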
